A study of Mus musculus with 11 samples.

Results

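Caspases are cysteine proteases that cut other proteins after aspartate, and gasdermin D is the pore-forming protein that the inflammatory caspases activate by cutting it. The set described here holds 8 genes, Casp1, Casp4, Casp12, Gsdmd, Casp8, Casp9, Casp2 and Casp6, chosen by their symbol in the deposited table of 14700 genes. All 8 were found once, and all 8 were among the 14478 genes with enough counts to be tested.

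Poly(A) RNA was sequenced in read pairs from whole lungs of C57BL/6 mice, 8 weeks old. In 5 libraries the mice had received bleomycin, a DNA-damaging glycopeptide used to injure the mouse lung, at 3 U/kg into the trachea. In 6 libraries they had received saline by the same route. Both were given in 50 µL at day 0, and the lungs were taken at day 3. The labels number the samples but do not say whether each came from its own animal, and p-values therefore reflect only how these samples vary, which may be technical. Total counts ranged from 13226339 to 19009284 per library. The lung markers Sftpc and Ager were high in every library (at least 6840 and 428 CPM, the TMM-scaled counts used for all levels below unless FPKM is named). Earlier results of these data had set saline 2 and 3 and saline 1 and 4 apart from the other saline libraries, and results are therefore also given without each pair.

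As background, Casp1 is activated in inflammasomes, multiprotein platforms that assemble on the adaptor Pycard, and it matures interleukin 1 beta and interleukin 18. Casp4, known in the mouse as caspase 11, binds bacterial lipopolysaccharide in the cytosol. Both cut gasdermin D, whose amino-terminal part then opens pores in the plasma membrane, a death called pyroptosis. Casp8 starts apoptosis below death receptors and Casp9 below the mitochondria, and both act on executioner caspases, the group in which Casp6 is placed.

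Casp1, Casp4 and Casp12 are next to each other on chromosome 9 in RefSeq's annotation of GRCm38.p6, with 0 genes of that annotation between Casp1 and Casp4 and 0 between Casp4 and Casp12. The 250 bases before a start that RefSeq annotates for each are shown because these 3 neighbours all fell after bleomycin, as described below. Capitals mark the matches to 3 motifs searched on both strands.
Casp1 (chr9:5298267-5298516, plus strand): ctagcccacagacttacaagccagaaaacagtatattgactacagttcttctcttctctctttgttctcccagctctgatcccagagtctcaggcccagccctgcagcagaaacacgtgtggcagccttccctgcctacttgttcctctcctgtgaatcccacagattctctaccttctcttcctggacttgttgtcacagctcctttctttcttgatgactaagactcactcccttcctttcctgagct
Casp4 (chr9:5308599-5308848, plus strand): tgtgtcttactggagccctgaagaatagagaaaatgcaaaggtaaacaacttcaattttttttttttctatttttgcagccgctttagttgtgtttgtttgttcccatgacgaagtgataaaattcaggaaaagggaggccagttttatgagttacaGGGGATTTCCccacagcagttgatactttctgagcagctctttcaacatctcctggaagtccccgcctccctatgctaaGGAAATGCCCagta
Casp12 (chr9:5345226-5345475, plus strand): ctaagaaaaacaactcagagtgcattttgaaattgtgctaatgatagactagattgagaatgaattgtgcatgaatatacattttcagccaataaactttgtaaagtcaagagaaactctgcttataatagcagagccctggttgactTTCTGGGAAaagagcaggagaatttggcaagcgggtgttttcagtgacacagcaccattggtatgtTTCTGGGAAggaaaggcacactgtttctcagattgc
The sequences are RefSeq's, of build GRCm38.p6, which is older than the build named in the submitters' processing notes (GRCm39). The motifs searched were GGG and TTTCC with 2 bases between them, a form of the site bound by NF-kB, TTC and GAA with 3 bases between them, the GAS element bound by STAT factors, and GAAA repeated after 2 bases, the ISRE of interferon-stimulated genes. The window searched ran from 250 bases before to 50 bases after the start, and 7 of the 8 genes had a sequence, Casp4 with 2 annotated starts. Casp4 held the NF-kB form at -93 and, on the other strand, at -14 from its first start, and 1.63% of all 32851 such windows held it. Casp12 held the GAS letters at -102 and -36, and 8.30% of all windows held them. The Casp1 window held none of the 3 forms, and the ISRE letters, which 3.44% of all windows held, were in none of the 7 genes. The GC box GGGCGG, searched besides, was in the windows of Casp2, Casp6 and Casp9, in none of those of Casp1, Casp4, Casp8 and Casp12, and in 35.7% of all windows. No motif overlapped another in the sequences printed.

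Bleomycin lungs held less Casp1, Casp4, Casp12 and Casp8 RNA than saline lungs, and no gene of the set rose. By edgeR's quasi-likelihood test with Benjamini-Hochberg adjustment over all genes tested, 4 of the 8 fell and 0 rose. Of all genes tested, 10.3% passed that threshold of 0.05, with 5.7% falling and 4.63% rising. The median log2 fold change (bleomycin over saline) was -0.75 for the 8 genes and -0.04 for all genes tested. In TMM-scaled CPM, all 5 bleomycin libraries lay below all 6 saline libraries for 3 of the 8 genes, Casp1, Casp4 and Casp12. That was the case for 4.41% of all genes. None of the 8 showed the reverse, all bleomycin above all saline libraries, which 3.99% of all genes did. In whole lung, fewer cells of a type and less RNA per cell cannot be told apart. With a correction for GC content, added after the data were seen, Casp1 was the 1 gene of the 8 past the threshold, where 3.81% of all genes fell (6.74% passed). By limma on log2(TPM + 1), which moved the median of all genes to 0.39, none of the 4 passed (adjusted p from 0.169 for Casp1 to 0.607 for Casp8), and 0 of the 8 had an unadjusted p under 0.05.

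**Figure D1:**
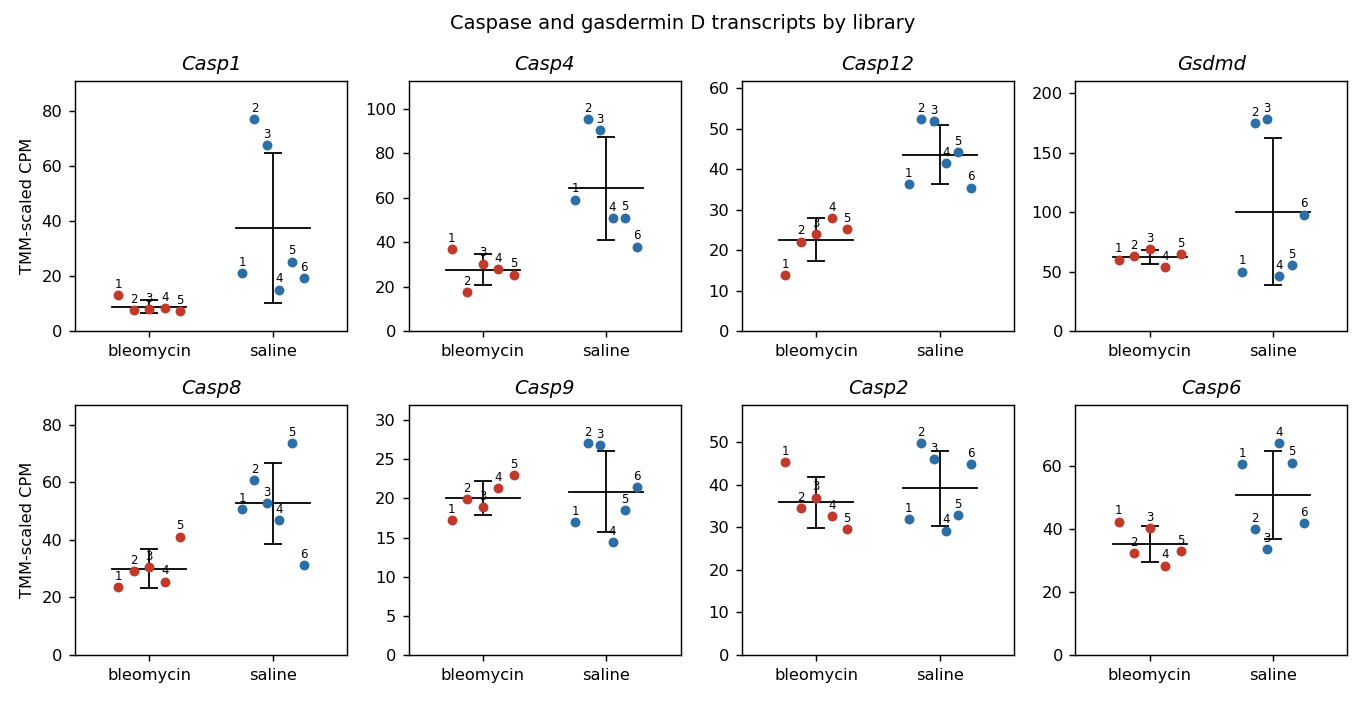
CPM after TMM scaling of each of the 8 genes (vertical axes, from 0) in the 5 bleomycin and 6 saline libraries, with the replicate number beside each point. Lines and bars give mean and SD. The bleomycin points of Casp1, Casp4 and Casp12 all lie below the saline points, and those of Gsdmd, Casp9, Casp2, Casp6 and Casp8 overlap them.

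Casp1 (ENSMUSG00000025888) stood at 13.04, 7.64, 8.06, 8.52 and 7.34 CPM in bleomycin 1 to 5, against 21.2, 77.05, 67.6, 15.1, 25.3 and 19.3 CPM in saline 1 to 6. Bleomycin 1 was the highest of its group and saline 2 and 3 were far above the other saline libraries. The groups did not overlap in TMM-scaled CPM, but that rested on the scaling (factors of 0.968 for bleomycin 1 and 0.829 for saline 4). Before scaling, Casp1 had 173 of 13704749 counts in bleomycin 1 and 238 of 19009284 in saline 4. By total count, bleomycin 1 therefore lay slightly above saline 4. In the deposited FPKM the 2 libraries were at 1.701 and 1.709. The means were 8.92 ± 2.35 CPM (SD, n = 5) in bleomycin and 37.6 ± 27.3 CPM (SD, n = 6) in saline lungs, and the log2 fold change was -2.08 ± 0.451 (SE, edgeR adjusted p = 0.0183). In an exact two-sided permutation test of log2(FPKM + 1), with 462 arrangements, p was 0.00866. Leaving out saline 2 and 3 gave -1.18 (adjusted p = 0.00927), and leaving out saline 1 and 4 gave -2.39 (adjusted p = 0.00993). Casp1 lost its call without bleomycin 2 (adjusted p = 0.0522), with a log2 fold change of -2.02, and by limma on log2(FPKM + 1) (-1.17, adjusted p = 0.0611).

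Casp4 (ENSMUSG00000033538) stood at 36.9, 17.5, 30.4, 28.02 and 25.5 CPM in bleomycin 1 to 5, against 59.2, 95.4, 90.6, 51.0, 51.1 and 38.1 CPM in saline 1 to 6. Bleomycin 1 and saline 6 came within 2 CPM of each other without overlapping, and saline 2 and 3 were again the highest. The log2 fold change was -1.21 ± 0.265 (SE, adjusted p = 0.0186), with means of 27.7 ± 7.10 CPM (SD, n = 5) in bleomycin and 64.2 ± 23.3 CPM (SD, n = 6) in saline lungs. The exact permutation p was 0.00649. The difference was -0.85 with saline 2 and 3 left out (adjusted p = 0.0216) and -1.29 with saline 1 and 4 left out (adjusted p = 0.0318). It passed whichever of the 11 libraries was left out (highest adjusted p 0.0494). With the GC correction it was -0.87 and did not pass (adjusted p = 0.101).

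Casp12 (ENSMUSG00000025887), the caspase of this cluster linked in the mouse to stress of the endoplasmic reticulum, stood at 13.8, 22.1, 24.0, 27.9 and 25.1 CPM in bleomycin 1 to 5, against 36.2, 52.3, 51.9, 41.5, 44.1 and 35.4 CPM in saline 1 to 6. Here bleomycin 1 was the lowest library, where it had been the highest of its group for Casp1 and Casp4. The log2 fold change was -0.95 ± 0.189 (SE, adjusted p = 0.0127), with means of 22.6 ± 5.34 CPM (SD, n = 5) in bleomycin and 43.6 ± 7.36 CPM (SD, n = 6) in saline lungs, and the exact permutation p was 0.00433. It passed whichever of the 11 libraries was left out. With saline 2 and 3 left out it was -0.80 (adjusted p = 0.0205), and with saline 1 and 4 left out it was -0.997 (adjusted p = 0.026). With the GC correction it was -0.57 (adjusted p = 0.133), and with libraries scaled to their total counts it was -0.77 (adjusted p = 0.055), neither past the threshold. By limma it did not pass on log2(FPKM + 1) (adjusted p = 0.0509) or log2(FPKM + 0.1) (adjusted p = 0.0533). Outside the cluster, the nearest tested gene beside Casp1 was Msantd4, whose log2 fold change of -0.59 did not pass (adjusted p = 0.0604). Beside Casp12 it was the growth factor gene Pdgfd (-0.37, adjusted p = 0.394).

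Gsdmd (ENSMUSG00000022575), which encodes the pore-forming substrate of Casp1 and Casp4, did not pass the test. It stood at 60.1, 63.4, 68.9, 54.1 and 65.1 CPM in bleomycin 1 to 5, against 50.03, 175, 178, 45.9, 55.4 and 97.8 CPM in saline 1 to 6. The bleomycin libraries lay close together, within the saline range, below saline 2, 3 and 6 and for the most part above saline 1, 4 and 5. The coefficient of variation was 8.97% over the bleomycin and 61.6% over the saline libraries, where the medians over all genes tested were 21.1% and 29.2%. The log2 fold change was -0.69 ± 0.365 (SE, adjusted p = 0.224). It was close to 0 when saline 2 and 3 were left out (adjusted p = 0.998) and -1.004 when saline 1 and 4 were (adjusted p = 0.0735), so the size of the difference rested on which saline libraries were included.

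**Figure D2:**
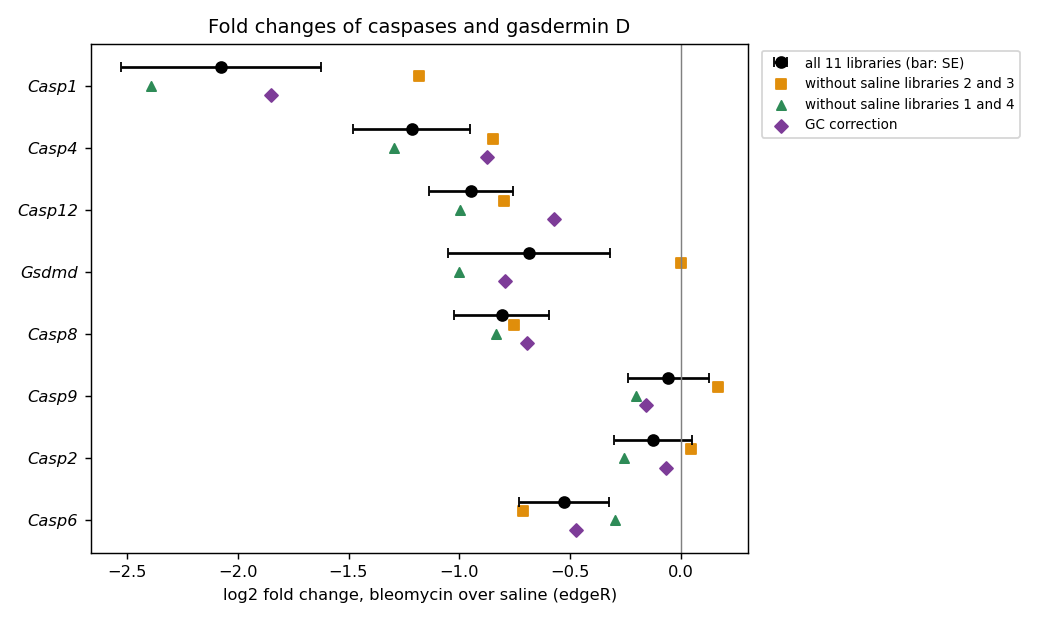
Log2 fold change of bleomycin over saline for each of the 8 genes by edgeR (horizontal axis), from all 11 libraries with its SE (black), without saline 2 and 3 (squares), without saline 1 and 4 (triangles) and with a GC correction (diamonds). Casp1 runs from -2.39 to -1.18 over these 4 fits, and Gsdmd is close to 0 only without saline 2 and 3.

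Of the initiator caspases, Casp8 fell, while Casp9 and Casp2 did not pass the test. Casp8 (ENSMUSG00000026029) stood at 23.7, 29.2, 30.6, 25.5 and 41.1 CPM in bleomycin 1 to 5, against 50.7, 60.8, 52.7, 46.8, 73.7 and 31.2 CPM in saline 1 to 6. Saline 6 lay within the bleomycin range, and the other 5 saline libraries lay above all bleomycin libraries. The log2 fold change was -0.81 ± 0.215 (SE, adjusted p = 0.0354), and the exact permutation p was 0.0368. The call held when bleomycin 5, saline 4 or saline 6 was left out and was lost when any other single library was (highest adjusted p 0.0844). It held with saline 2 and 3 left out (-0.75, adjusted p = 0.0482), was lost with saline 1 and 4 left out (-0.83, adjusted p = 0.072), and was lost with the GC correction (-0.69, adjusted p = 0.071). It was also lost with libraries scaled to their total counts (-0.61, adjusted p = 0.0965) and by limma on log2(FPKM + 1) (adjusted p = 0.0944) and on log2(FPKM + 0.1) (adjusted p = 0.0928). Cflar, which encodes a catalytically inactive relative of Casp8 that restrains it and lies beside it on chromosome 1, had a log2 fold change of -0.25 that did not pass (adjusted p = 0.257).

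Casp9 (ENSMUSG00000028914), which is activated in the apoptosome, stood at 17.2, 19.9, 18.9, 21.3 and 23.002 CPM in bleomycin 1 to 5, against 17.0, 27.1, 26.8, 14.5, 18.5 and 21.4 CPM in saline 1 to 6. The bleomycin values lay inside the saline range. Its log2 fold change was -0.06 ± 0.184 (SE, adjusted p = 0.858), which became 0.17 with saline 2 and 3 left out (adjusted p = 0.472). Its annotated span overlaps that of Cela2a. Casp2 (ENSMUSG00000029863), the caspase of the PIDDosome, a complex linked to p53, stood at 45.3, 34.6, 37.0, 32.7 and 29.6 CPM in bleomycin 1 to 5, against 32.0, 49.8, 46.0, 29.2, 32.9 and 44.8 CPM in saline 1 to 6. Its bleomycin values also lay inside the saline range. The log2 fold change of -0.13 ± 0.177 (SE, adjusted p = 0.653) was 0.04 with saline 2 and 3 left out (adjusted p = 0.875), and total-count scaling turned its sign and that of Casp9.

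Casp6 (ENSMUSG00000027997), grouped with the executioners, stood at 42.3, 32.3, 40.2, 28.3 and 32.8 CPM in bleomycin 1 to 5, against 60.6, 39.996, 33.4, 67.3, 61.0 and 41.7 CPM in saline 1 to 6. Its saline libraries ran the other way from those of Casp1, with saline 2 and 3 the lowest and saline 4, 5 and 1 the highest. The log2 fold change was -0.53 ± 0.202 (SE), which did not pass (adjusted p = 0.109, exact permutation p = 0.0519). With saline 2 and 3 left out it was -0.71 and passed (adjusted p = 0.0218), and with saline 1 and 4 left out it was -0.30 (adjusted p = 0.362). In RefSeq's annotation its span overlaps the predicted genes Gm46825 and Gm40150, and no source used here gives the strand setting of the counting.

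Without saline 2 and 3, the 5 genes Casp1, Casp4, Casp12, Casp8 and Casp6 fell, where 9.97% of all genes fell (19.2% passed). Without saline 1 and 4, the 3 genes Casp1, Casp4 and Casp12 fell, where 4.07% of all genes fell (6.04% passed).

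Levels of different genes were compared in the deposited FPKM, which divides by a length for each gene. How that length was defined is unknown, and it was not checked against transcript lengths. The order of the genes and the size of the ratios between genes below rest on it, and may not follow transcript levels. In bleomycin lungs the order was Gsdmd, Casp6, Casp8, Casp4, Casp2, Casp12, Casp9 and Casp1, with mean FPKM of 13.02, 5.72, 4.04, 4.00, 3.09, 2.71, 2.29 and 1.28. Gsdmd lay above Casp6 and Casp9 above Casp1 in 5 of 5 libraries, by more than the SD of either. Casp6 lay above Casp8 in 4 of 5 libraries and by more than the SD of either, and so did Casp4 above Casp2. The neighbours Casp8 and Casp4, Casp2 and Casp12, and Casp12 and Casp9 differed by less than the larger SD. In saline lungs the order was Gsdmd, Casp4, Casp6, Casp8, Casp1, Casp12, Casp2 and Casp9, with mean FPKM of 19.5, 8.45, 7.20, 6.20, 5.06, 4.62, 3.09 and 2.15. There Gsdmd lay above Casp4, Casp12 above Casp2 and Casp2 above Casp9 in 6 of 6 libraries, and only Casp12 and Casp2 differed by more than the larger SD. Casp1 was last of the 8 in bleomycin lungs. In saline lungs its mean lay above that of Casp12, but it was above Casp12 only in 2 of 6 libraries, saline 2 and 3.

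**Figure D3:**
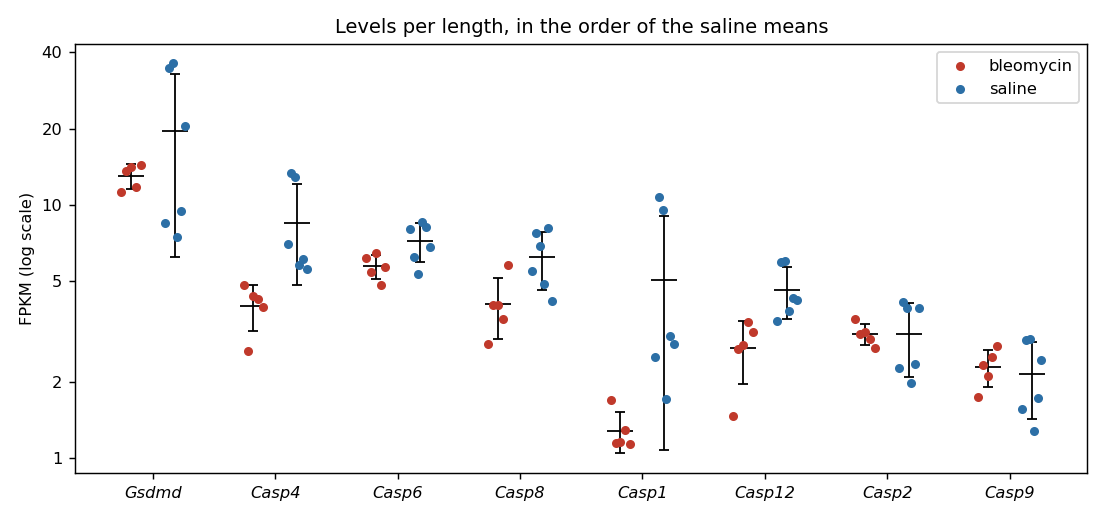
Deposited FPKM (log axis) of the 8 genes in the bleomycin (left of each pair) and saline libraries, ordered by the saline mean. Bars give mean and SD over 5 and 6 libraries. Casp1 lies at 1.13 to 1.70 FPKM in bleomycin lungs and below the other 7 genes on average. Heights of different genes rest on the length each was divided by, which was not checked.

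Within a library, Gsdmd FPKM was 6.60 to 12.7 times that of Casp1 in bleomycin lungs (median 11.9), against 3.14 to 7.25 times in saline lungs (median 3.58). Bleomycin 1, at 6.60, lay inside the saline range, below saline 6. Casp4 FPKM was 2.30 to 3.78 times that of Casp1 in bleomycin and 1.24 to 3.38 times in saline lungs, with the lowest ratios in saline 2 and 3.

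The 8 genes fell into different patterns over the saline libraries. Saline 2 and 3 were the 2 highest saline libraries for Casp1, Casp4, Casp12, Gsdmd, Casp9 and Casp2, saline 5 and 2 for Casp8, and saline 4 and 5 for Casp6. The highest saline library held 5.10 times the lowest for Casp1 and 3.87 times for Gsdmd, and 1.48 times for Casp12, where the median over all genes tested was 2.12. The coefficient of variation of Casp1 over the saline libraries was 72.5%, and 8.22% of all genes tested had a higher one.

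As a description of the pattern over the 11 libraries, each gene was set against the 4923 genes with a mean of 5 FPKM or more, by Pearson's r of log2(CPM + 1). The points share the group difference and the library scaling. Casp1 was most like Itgb7, an integrin subunit gene of lymphocytes (r = 0.987), and Irf1, an interferon-induced transcription factor gene (r = 0.980). Like Casp1, both were highest in saline 2 and 3 (Itgb7 266 and 232 CPM, Irf1 594 and 562 CPM), and these r rest in part on those libraries. Casp4 was most like Rilpl2 (r = 0.95) and the adhesion receptor gene Cd44 (r = 0.935). For Casp12 the closest were the chemokine gene Ccl8 (r = 0.973) and Bcl2a1d (r = 0.972), whose reads may be shared with its near-identical copies. Those closest to Gsdmd were Idnk (r = 0.975) and Nod1, which encodes a sensor of bacterial peptidoglycan (r = 0.968). For Casp8 they were Cpsf2 (r = 0.958) and Itm2c (r = 0.943), and for Casp9 H2-Q6, of a multigene family (r = 0.955), and Csk (r = 0.952). Casp2 was most like Taf15 (r = 0.913) and Mnt (r = 0.899), and Casp6 most like Gtf2b (r = 0.971) and mt-Co2, a mitochondrial respiratory chain gene (r = 0.967).

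A leukocyte marker fell as well. Ptprc encodes the pan-leukocyte surface protein CD45. It stood at 54.8 to 130 CPM in bleomycin lungs (median 92.0), against 143 to 512 CPM in saline lungs (median 295). These ranges of TMM-scaled CPM did not overlap. In the deposited FPKM, Ptprc stood at 1.52 to 3.27 in bleomycin and 3.14 to 13.8 in saline lungs, with overlap. Its log2 fold change was -1.78 ± 0.324 (SE, adjusted p = 0.00887), the largest fall of the 6 leukocyte markers listed below. The other markers ran from -1.59 to -0.71, none past the threshold, and ratios to them were not taken. The ratios below therefore hold for Ptprc alone. The FPKM of Casp1 divided by that of Ptprc was 0.385 to 0.760 in bleomycin lungs (median 0.487) and 0.400 to 0.785 in saline lungs (median 0.492), so the ratios covered nearly the same range. For Gsdmd the ratio was 3.43 to 9.31 in bleomycin and 1.30 to 3.20 in saline lungs, without overlap, as it was for 46.4% of all genes tested. The ratios of Casp4, Casp12 and Casp8 to Ptprc had higher medians in bleomycin lungs (1.47, 1.07 and 1.504) than in saline lungs (1.0096, 0.572 and 0.764), and their ranges overlapped. None of the 5 ratios lay wholly below the saline range in bleomycin lungs, which 0.0898% of all genes' ratios did.

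**Figure D4:**
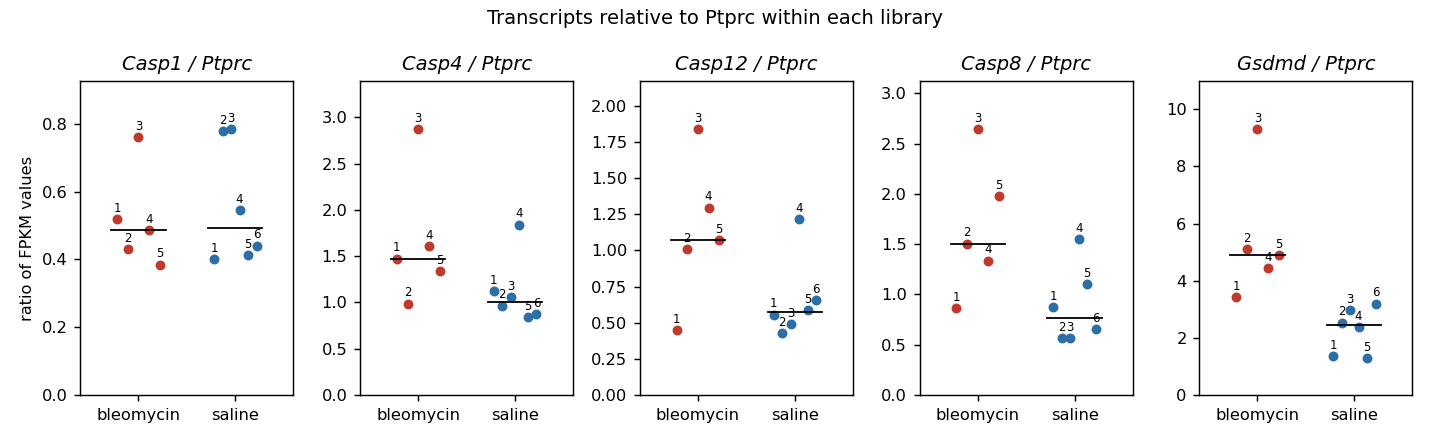
FPKM of Casp1, Casp4, Casp12, Casp8 and Gsdmd divided by the FPKM of Ptprc in the same library (vertical axes, from 0), in the 5 bleomycin and 6 saline libraries, with replicate numbers and a line at the median. The ranges of Casp1 nearly coincide and those of Gsdmd do not overlap.

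Of 6 leukocyte markers Ptprc fell and the other 5 did not pass, and their summed level was 367 to 1002 CPM in bleomycin and 557 to 2587 CPM in saline lungs. Over all genes tested, 5.7% fell and 4.63% rose. Of 9 tested T and natural killer cell markers 8 fell, with sums of 20.1 to 45.95 CPM in bleomycin and 101 to 410 CPM in saline lungs. Of 8 dendritic cell markers 3 fell (252 to 1282 CPM in bleomycin, 1273 to 9147 CPM in saline), and of 11 monocyte and macrophage markers 1 fell (4217 to 7342 CPM in bleomycin, 4905 to 12939 CPM in saline). With saline 1 and 4 left out, 2 of the leukocyte and 4 of the monocyte and macrophage markers fell, where 4.07% of all genes fell. With saline 2 and 3 left out, 1 of each list fell, where 9.97% of all genes fell. The median log2 fold changes of these lists were then -0.48 and -0.30, against -1.23 and -1.54 with all libraries. Of 8 neutrophil markers only 2, Csf3r and Cxcr2, were among the genes tested. The other 6 (S100a8, S100a9, Retnlg, Mmp9, Ngp and Ly6g) were not, so little can be said of neutrophils. Of the 2 tested neutrophil markers 0 passed by edgeR, and 0 had an unadjusted p under 0.05. The sums of these 2 were 31.1 to 211 CPM in bleomycin and 37.8 to 166 CPM in saline lungs. Of 11 alveolar epithelial markers 4 rose and 0 fell, with sums of 21493 to 32361 CPM in bleomycin and 10761 to 40730.4 CPM in saline lungs. Of the 5 club cell markers 2 fell, and 1 of 5 endothelial and 1 of 5 fibroblast markers rose, calls that were lost with saline 1 and 4 left out. No tested gene of these lists was at 0 in any library, and the part of cell content in the caspase results was not tested.

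Around the inflammatory caspases, targets of interferon-gamma fell together. Of 15 tested interferon-gamma targets and genes that sense lipopolysaccharide 13 fell and 0 rose, with a median log2 fold change of -2.26. Over all genes tested, 5.7% fell with all libraries, 9.97% without saline 2 and 3 and 4.07% without saline 1 and 4. Gbp5, a guanylate-binding protein gene of the group that helps expose lipopolysaccharide to Casp4, had a log2 fold change of -3.96 ± 0.747 (SE, adjusted p = 0.0101), Gbp2 one of -3.62 and Igtp one of -3.14. The call of Gbp2 was lost without bleomycin 2 or bleomycin 4 (highest adjusted p 0.0528). Of the same list 12 fell with either pair of saline libraries left out, with medians of -1.73 (without saline 2 and 3) and -2.56 (without saline 1 and 4). Of 13 tested inflammasome sensor and adaptor genes 2 fell, Pycard, the adaptor that recruits Casp1, and Aim2, a sensor of cytosolic DNA, and the median was -1.51. Pycard stood at 6.25 to 13.6 CPM in bleomycin (median 7.36) and 12.9 to 44.8 CPM in saline lungs (median 19.04), with a log2 fold change of -1.54 ± 0.369 (SE, adjusted p = 0.0252), and Aim2 had one of -1.497 ± 0.382 (SE, adjusted p = 0.031). The call of Pycard was lost without any 1 of bleomycin 2 to 5 (highest adjusted p 0.064), and that of Aim2 without any 1 of bleomycin 1 to 4 or saline 3 (highest adjusted p 0.0778). The medians of the 13 were -0.64 without saline 2 and 3, where 2 fell, and -1.79 without saline 1 and 4, where 5 fell. Nek7, which binds the sensor Nlrp3, had the highest mean FPKM of this list and a log2 fold change of -0.10 (adjusted p = 0.798).

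Where 5.7% of all genes tested fell, 1 of 5 tested genes for pyroptosis cargo and other pore proteins did, Il1b, the gene of interleukin 1 beta. It stood at 6.00 to 28.1 CPM in bleomycin and 17.6 to 285 CPM in saline lungs, and its log2 fold change of -2.79 ± 0.759 (SE, adjusted p = 0.0382) lost its call with saline 2 and 3 left out (adjusted p = 0.0674) and without 8 of the 11 libraries one at a time, all but saline 1, 4 and 6 (highest adjusted p 0.0913). Il18, the gene of the other cytokine that Casp1 matures, did not pass (-0.52, adjusted p = 0.215). Of 6 tested inhibitors in this pathway, a list that includes Casp12, 2 fell, Casp12 and Serpinb1a, whose protein binds inflammatory caspases (-1.28 ± 0.286, SE, adjusted p = 0.0201, lost without bleomycin 2, 4 or 5).

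Around the apoptotic caspases 1 gene passed in each of the lists below, where 10.3% of all genes tested passed. Of 8 genes of the apoptosome and mitochondrial release 1 fell, Cycs, which encodes cytochrome c (-0.67 ± 0.189, SE, adjusted p = 0.0442), and it lost the call with saline 1 and 4 left out (adjusted p = 0.166) and without any 1 library but saline 2, 3 and 6 (highest adjusted p 0.101). With saline 2 and 3 left out, 2 genes of that list rose and 1 fell. Of 6 tested inhibitors of apoptosis 1 fell, Birc5 (-1.08, adjusted p = 0.0305), whose call was lost with saline 2 and 3 left out (adjusted p = 0.0508) and without saline 3 or any 1 bleomycin library (highest adjusted p 0.0749). The GC correction ended the calls of Il1b, Cycs and Birc5 and left 1 of the 13 inflammasome genes past the threshold. Of 11 tested genes of death receptor signalling 1 rose, Tnfrsf10b, which encodes a death receptor above Casp8. Its level was 13.5 to 77.5 CPM in bleomycin and 4.06 to 10.3 CPM in saline lungs (2.23 ± 0.448, SE, adjusted p = 0.0132), and it passed without either pair of saline libraries. Of 4 genes of the PIDDosome and p53 feedback Cdkn1a, the p21 gene, rose (2.34 ± 0.495, SE, adjusted p = 0.0161). Of 11 genes of endoplasmic reticulum stress, set beside Casp12, 1 fell, the chaperone gene Hsp90b1 (-0.85 ± 0.162, SE, adjusted p = 0.0106), and the median log2 fold change was 0.06.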

How the data were processed

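The authors deposited 1 table, which pairs read counts with FPKM for every gene in each library. The deposited counts are whole numbers, not normalized. The deposited FPKM values are the authors' counts divided by a length for each gene and by library size. How the authors defined that length is unknown. The submitters' processing notes name FastQC, HISAT2 2.2.1, HTSeq 2.0.2 and the mouse build GRCm39. Annotation and strand setting: not given in the sources used here. Groups follow the sample titles (5 bleomycin, 6 saline).

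In edgeR 4.0.16 (R 4.3.3), filterByExpr with a count minimum of 10 left 14478 genes. After TMM scaling, the groups were compared by quasi-likelihood tests, two-sided, with p-values adjusted by Benjamini-Hochberg over these genes (threshold 0.05). The SE was taken as the absolute log2 fold change over the square root of F. Code was tested on simulated data. For single genes, mean log2(FPKM + 1) was permuted exactly (462 arrangements). Alternatives used limma 3.58.1 and DESeq2 1.42.0, and the GC correction (loess on transcript GC, GENCODE GRCm38, found for 99.9% of genes tested) was added after seeing the data. The 8 genes, the gene lists and the alternatives were chosen with earlier results of these data known. The genes named are the 8, up to 4 of each list (the 3 largest changes past the threshold and the highest mean FPKM) and the 2 most alike in pattern. Cflar, Il18, the neighbours Msantd4 and Pdgfd and the neutrophil markers were named besides.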

Additional observations from a re-analysis of the deposited data

Results flagged for a closer look

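Of 16 sets of libraries examined (8 genes in 2 groups), 1 held a library far from the others. Casp1 in bleomycin 1 was at 13.04 CPM, where the next highest bleomycin library was at 8.52 CPM and the lowest at 7.34 CPM. The gap was 0.792 of the range of the 5 libraries. About 1 in 20 such sets is marked by chance. Without bleomycin 1 the log2 fold change of Casp1 was -2.25 (adjusted p = 0.0233). Ptprc was also highest in that library among the bleomycin lungs (130 CPM), and the sum of the 6 leukocyte markers was 1002 CPM there against 367 to 616 CPM in the other 4. Whether the 2 are related was not tested.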

How the results depend on the processing

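Of the 8 genes, 4 fell with all 11 libraries. The number was 2 with the stricter filter (at least 5 libraries at FPKM 5 or above, which kept 4 of the 8), 2 with total-count scaling, 1 by limma on log2(FPKM + 1), 2 by limma on log2(FPKM + 0.1), 2 with a replicate block, 1 with the GC correction and 2 to 4 when 1 library was left out. It was 0 by limma on log2(TPM + 1), where 0 of 8 had an unadjusted p under 0.05, and 0 at a threshold of 0.01, where 5 of 8 had an unadjusted p under 0.05 by edgeR. The median of all genes moved to 0.39 on TPM and to 0.14 with total-count scaling. The number of all genes past the threshold, 1496, was 732 with the stricter filter, 2864 by DESeq2, 506 with a replicate block, 2778 without saline 2 and 3, 876 without saline 1 and 4, 976 with the GC correction, 247 at a threshold of 0.01 and 557 to 2118 when 1 library was left out. Of all genes, 671 rose and 825 fell, against 894 and 380 with total-count scaling, 1022 and 346 by limma on log2(FPKM + 1), 985 and 378 with a pseudocount of 0.1 and 1017 and 81 on TPM.

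Casp1, Casp4, Casp12 and Casp8 were negative in every alternative, with adjusted p ranges of 7.7e-05 to 0.169, 0.000367 to 0.287, 9.35e-05 to 0.43 and 0.00565 to 0.607. The sign turned for 4 other genes. Casp9 was at 0.0958 with total-count scaling, 0.0879 by limma on log2(FPKM + 1) and in the exact permutation, 0.138 with a pseudocount of 0.1, 0.393 on TPM and 0.169 without saline 2 and 3. It ran from -0.143 to 0.0311 when 1 library was left out, positive without saline 2 or saline 3. Casp2 was at 0.00686 with total-count scaling, 0.035 by limma on log2(FPKM + 1) and in the exact permutation, 0.0582 with a pseudocount of 0.1, 0.338 on TPM and 0.0433 without saline 2 and 3. On TPM, Gsdmd was at 0.0357 and Casp6 at 0.014. The cause was not tested.

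The replicate numbers did not pair the libraries: deviations of same-numbered libraries correlated at -0.242 to 0.0286. With the replicate block over the 10 libraries of shared numbers, Casp1 (adjusted p = 0.0662) and Casp4 (adjusted p = 0.0548) did not pass, and 1 of 5 bleomycin libraries was closest to the saline library of its own number. Each of the 8 genes had at least 125 counts in every library.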
